A study of Rattus norvegicus with 12 samples.

Results

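The comparison described here is that of H9c2 cells given methylmalonic acid together with folic acid (MMA+FA) with H9c2 cells given folic acid alone (FA). It asks what methylmalonic acid did to the transcriptome of cells that also received folic acid. The 6 libraries, 3 per group, were taken by their treatment labels from a series of 12 in which 3 libraries of cells given methylmalonic acid alone (MMA) and 3 of control cells complete the design. H9c2 is a rat line derived from embryonic heart that keeps features of skeletal myoblasts, and the labels call it cardiomyocytes. Both groups compared carry folic acid. The sources used here give no doses, exposure times or media and do not say whether replicates were separate cultures, so p-values measure only the spread between these samples.

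Methylmalonic acid is the free acid of methylmalonyl-CoA, an intermediate in the breakdown of propionate, of some branched-chain amino acids and of odd-chain fatty acids. It builds up when the cobalamin-dependent mutase Mmut works poorly. Folate carries one-carbon units for the synthesis of thymidylate, purines and methionine, and it meets cobalamin in the enzyme methionine synthase, encoded by Mtr.

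Expression was deposited as TPM, each gene's part of all transcripts in a library after correction for length, which keeps no read depth, so the depth behind each value is unknown. Of 30562 genes in the table, 12263 averaged 1 TPM or more across all 12 libraries and were tested. Between 12070 and 12195 genes reached 1 TPM in the MMA+FA libraries and between 12188 and 12243 in the FA libraries. The 100 most abundant genes held 37.8 ± 0.477% of all TPM in MMA+FA cells and 36.6 ± 0.0922% in FA cells (SD, n = 3 each; two-sided exact permutation p = 0.1, the smallest that 3 against 3 libraries allow). Since a gain in abundant transcripts lowers the share of all others, counts and main differences are also given after median-ratio scaling, which divides a library by its median ratio to the gene-wise geometric mean. The scaling factors were 0.937 to 0.971 for MMA+FA and 1.007 to 1.015 for FA. Most defining cardiomyocyte markers were at or near 0: of 13 in the table, 3 were tested (Tnnt2, Gata4 and Nkx2-5), Myl7 was listed at 0 in all 6 libraries, and Myh6 did not exceed 0.11 TPM. Their summed level was 84.4 to 104 TPM in MMA+FA and 61.8 to 64.4 TPM in FA, a gap carried by Tnnt2. Nkx2-5 was at 11.3 ± 1.17 TPM in MMA+FA and 12.1 ± 1.68 TPM in FA, and Gata4 at 5.69 ± 0.212 TPM in MMA+FA and 5.68 ± 0.325 TPM in FA. The skeletal myoblast markers had 10 of 15 members tested, with Pax7 at 0, and summed to 550 to 589 TPM in MMA+FA and 652 to 722 TPM in FA. Endothelial markers summed to 45.6 to 46.6 TPM in MMA+FA and 43.9 to 50.8 TPM in FA, with Emcn and Cldn5 at 0. That sum was mostly Egfl7 and Flt1, and Pecam1 and Cdh5 did not exceed 0.03 TPM. Leukocyte markers summed to 15.9 to 18.0 TPM in MMA+FA and 16.3 to 18.0 TPM in FA, mostly from Cd14, with Tyrobp and Cd8a at 0. Epithelial markers summed to 26.9 to 33.9 TPM in MMA+FA and 30.3 to 33.1 TPM in FA, nearly all from Krt8, with Epcam at 0. Neural markers summed to 10.3 to 11.8 TPM in MMA+FA and 13.0 to 14.9 TPM in FA, mostly from Tubb3 and Map2, with Snap25 and Nefl at 0.

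With MMA added to FA, most called genes were lower in the deposited values, by small amounts. At an adjusted p under 0.05 in limma, a linear model fitted to log2(TPM + 1) over all genes, 1288 genes differed (10.5% of those tested), 196 higher (1.6%) and 1092 lower (8.9%), and 3594 had an unadjusted p under 0.05. After median-ratio scaling 723 genes differed (5.9%), 421 higher (3.43%) and 302 lower (2.46%). Called in the same direction on both scales were 195 higher and 302 lower genes. The balance of higher and lower calls thus turned with the scale, with the median gene at -0.07 as deposited and -0.00 after scaling. The median size of a called difference was 0.27 on the log2 scale. The libraries of both groups did not overlap for 3525 genes (28.7%). Genes named below for the largest differences were required not to overlap, so this trait of theirs is no added support.

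The calls rest on shared estimates of spread and on single libraries. Fitted on the 6 libraries alone, 23 genes were called, 4 higher and 19 lower. Leaving out 1 library of MMA+FA gave 995 calls for replicate 1, 362 for replicate 2 and 431 for replicate 3. Leaving out 1 library of FA gave 357 calls for replicate 1, 2010 for replicate 2 and 505 for replicate 3. Of the 1288 genes, 219 (17.0%) kept their call with any 1 of the 6 libraries left out, 33 higher and 186 lower.

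**Figure D1:**
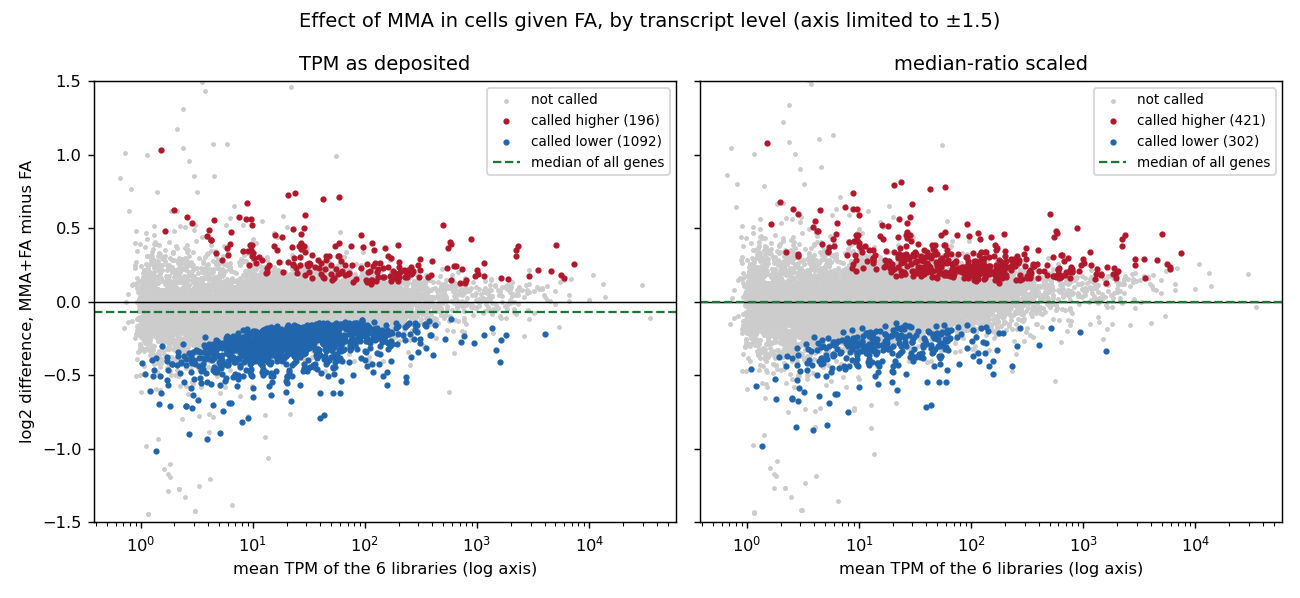
Log2 difference of MMA+FA minus FA (vertical axis, log2(TPM + 1) scale) for each tested gene against its mean TPM over the 6 libraries (horizontal log axis), with TPM as deposited on the left and median-ratio scaled values on the right. Called genes are coloured, 196 higher and 1092 lower on the left and 421 higher and 302 lower on the right, the dashed line marks the median of all genes, and genes beyond 1.5 in either direction lie outside the axis.

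Changes beyond 2-fold on the log2(TPM + 1) scale were few and lay mostly in loci of low or uncertain level. This scale understates the changes of low genes, so a called gene at low TPM can differ 2-fold in TPM without being listed here. Called at least 2-fold higher were Rpl36l5, a second locus listed as Gemin4 (2.35 ± 0.374 TPM in MMA+FA and 0.690 ± 0.548 TPM in FA), a long non-coding locus listed as Ufm1 and a pair of loci without a symbol. Called at least 2-fold lower were Hist1h2bc, Ubcl1, LOC120095480, AABR07035832.1 and a locus without a symbol. These 10 were looked up after their values were seen. Of them, 4 were listed at 0 in every MMA+FA library and 2 in every FA library, and Rpl36l5 and Hist1h2bc belong to families of near-identical genes between which reads may have been split.

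Striated muscle genes stood among the largest increases, while the myoblast regulator Myod1 and other myoblast genes fell. Tnnt2, the thin-filament troponin T of heart and of immature muscle, had 84.6, 67.5 and 68.7 TPM in the MMA+FA libraries, against 43.8, 47.1 and 42.4 TPM in the FA libraries. No FA library came near the lowest MMA+FA library. The difference was 0.71 on the log2 scale (SE 0.10, adjusted p = 0.00406 in limma). Scaled means were 76.7 ± 9.22 TPM in MMA+FA and 44.0 ± 2.56 TPM in FA (SD, n = 3 each), a difference of 0.78 (adjusted p = 0.00427 in limma).

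Acta1, skeletal muscle alpha-actin, had 10.4, 7.93 and 9.39 TPM in MMA+FA and 6.37, 6.01 and 5.18 TPM in FA. The groups did not overlap, and the difference was 0.58 (SE 0.11, adjusted p = 0.0122 in limma), or 0.64 after scaling (adjusted p = 0.00841). Lmod3, which starts actin filaments in the sarcomere, was at 35.7 ± 6.21 TPM in MMA+FA and 23.2 ± 2.45 TPM in FA (log2 0.59, adjusted p = 0.0179), a call lost in 2 of 6 fits with a library left out (highest adjusted p = 0.0577, without MMA+FA replicate 3). Cavin4, a muscle protein of caveolae, was at 26.9 ± 3.31 TPM in MMA+FA and 18.8 ± 1.47 TPM in FA (log2 0.49, adjusted p = 0.00918). Tnnt2, Acta1 and Cavin4 kept their calls with any 1 of the 6 libraries left out. Trim63, the muscle ubiquitin ligase MuRF1, also rose, with 26.5, 25.2 and 24.6 TPM in MMA+FA and 17.9, 18.8 and 21.8 TPM in FA (log2 0.37, adjusted p = 0.0099 in limma).

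As background for the next counts, 1.6% of all genes were called higher as deposited and 3.43% after scaling. Of 17 tested sarcomere genes, 4 rose (Tnnt2, Lmod3, Acta1 and Myl4) and none fell, with a median of 0.10 as deposited and 0.17 after scaling, where the same count of 4 rose. With 1 library left out between 2 and 4 rose, 2 without FA replicate 3 or MMA+FA replicate 3. Most of the list did not pass the test. Tnnc1, the slow and cardiac troponin C, was at 392 ± 37.1 TPM in MMA+FA and 397 ± 37.1 TPM in FA (log2 -0.02, adjusted p = 0.906 in limma). Among 24 genes of smooth muscle contraction, 3 rose, including the focal adhesion protein Vcl (log2 0.16, adjusted p = 0.0178) and the light chain Myl6, while Mrtfa fell. After scaling 6 rose and none fell, and as deposited 1 rose without FA replicate 1 or 3.

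The first 250 bases upstream of Tnnt2 and Acta1 are shown because both genes rose together and both hold an MCAT element, a motif of muscle promoters bound by TEAD factors. They come from RefSeq on the assembly GRCr8, Tnnt2 at chr13:49818873-49819122 on the plus strand and Acta1 at chr19:68784195-68784444 on the minus strand, written 5′ to 3′ with the MCAT letters CATTCC in capitals.
Tnnt2: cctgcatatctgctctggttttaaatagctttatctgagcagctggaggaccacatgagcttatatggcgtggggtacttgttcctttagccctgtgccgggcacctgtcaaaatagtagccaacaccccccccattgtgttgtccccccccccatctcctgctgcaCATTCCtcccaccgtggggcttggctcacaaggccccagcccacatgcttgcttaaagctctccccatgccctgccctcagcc
Acta1: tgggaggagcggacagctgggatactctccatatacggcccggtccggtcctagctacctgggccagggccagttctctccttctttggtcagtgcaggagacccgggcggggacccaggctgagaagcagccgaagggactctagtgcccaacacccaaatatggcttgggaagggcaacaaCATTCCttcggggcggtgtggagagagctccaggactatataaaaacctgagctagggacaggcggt
Counted back from the listed start, the match lies from -83 to -78 in Tnnt2 and from -67 to -62 in Acta1. On either strand, 2 of the 14 sarcomere genes with a promoter in the table held CATTCC (14.3%), against 11.8% of all 27457 promoters of the same length, close to the share elsewhere. Those 2 are Tnnt2 and Acta1, so the pair shown was picked for the motif. A match describes these letters and is not evidence of binding.

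Myod1, which commits cells to the myogenic lineage, had 34.7, 28.2 and 32.3 TPM in MMA+FA and 58.6, 45.7 and 61.2 TPM in FA. Every MMA+FA library was below every FA library, and the difference was -0.77 (SE 0.096, adjusted p = 0.00207 in limma), or -0.70 after scaling (adjusted p = 0.00427). Musk, the kinase that organises the neuromuscular junction, was at 43.9 ± 1.20 TPM in MMA+FA and 60.6 ± 0.811 TPM in FA (log2 -0.45, adjusted p = 0.00207). The adhesion molecule Ncam1 fell by 0.29 (adjusted p = 0.00298) and the muscle cadherin Cdh15 by 0.30 (adjusted p = 0.0248). Of the 10 tested myoblast markers, these 4 fell, beside 8.9% of all genes, and none rose. With 1 library left out 3 or 4 fell. After scaling Cdh15 lost its call (adjusted p = 0.0738). Myog, which drives terminal differentiation, did not pass the test at 18.4 ± 1.01 TPM in MMA+FA and 21.4 ± 1.14 TPM in FA (log2 -0.21, adjusted p = 0.124 in limma). Among muscle transcription factors, Mef2c rose by 0.24 (adjusted p = 0.0353), a call lost in 4 of 6 fits with a library left out. In cultures of many cells, fewer cells of a kind and less RNA per cell cannot be told apart.

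**Figure D2:**
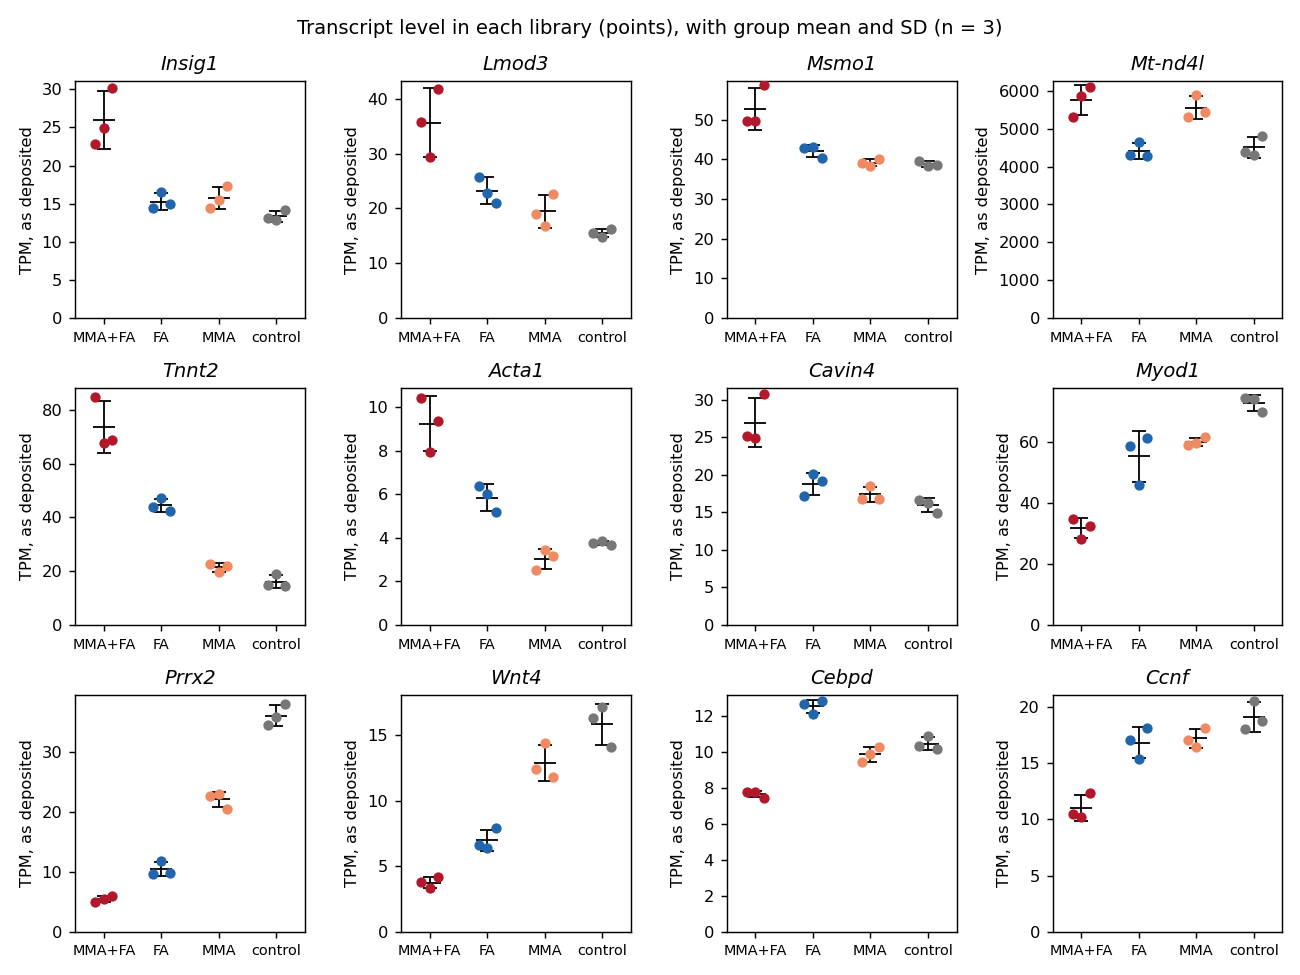
Deposited TPM of 12 genes in each library (points) with the group mean and SD (n = 3) for MMA+FA, FA, MMA and control. For Tnnt2, Acta1, Insig1 and Mt-nd4l every MMA+FA library is above every FA library, and for Myod1, Prrx2, Wnt4, Cebpd and Ccnf every MMA+FA library is below.

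Transcripts made by the mitochondrial genome for complex I, the NADH dehydrogenase of the respiratory chain, were higher in MMA+FA. All 7 were called higher on both scales, with a median of 0.38 as deposited and 0.45 after scaling, beside 1.6% and 3.43% of all genes. In MMA against control 5 of the 7 were called higher, beside 3.85% of all genes, with a median of 0.30 (0.38 after scaling). The difference between the effects with and without FA was called for none of the 7. Mt-nd4l had 5315, 5861 and 6098 TPM in MMA+FA, against 4306, 4640 and 4281 TPM in FA, a difference of 0.38 (SE 0.061, adjusted p = 0.00602 in limma). Mt-nd1 had 2443, 2661 and 2803 TPM in MMA+FA and 1941, 2274 and 1873 TPM in FA (log2 0.38, adjusted p = 0.00955). The libraries did not overlap for either gene, and both kept their calls with any 1 library left out. Mt-nd5 rose by 0.42 (adjusted p = 0.0108) and Mt-nd2 by 0.35 (adjusted p = 0.0126). Mt-nd6, the complex I gene read from the opposite strand, rose by 0.52 (adjusted p = 0.0442), but the strand setting of the counting is not given, so its reads and those of overlapping antisense RNA cannot be told apart. The 7 calls became 4 without FA replicate 1, FA replicate 3, MMA+FA replicate 2 or MMA+FA replicate 3.

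Both tested mitochondrial ribosomal RNA genes rose too, AY172581.9 by 0.41 (adjusted p = 0.0099 in limma) and AY172581.24 by 0.37 (adjusted p = 0.0117). The mitochondrial genes of the other complexes did not pass the test, although all 6 differences were above 0, with a median of 0.13. After scaling 1 of them, the cytochrome b gene Mt-cyb, was called higher, and without FA replicate 2 the deposited count was 3. Mt-co1, a subunit of cytochrome oxidase, was at 13935 ± 428 TPM in MMA+FA and 13701 ± 1581 TPM in FA (log2 0.03, adjusted p = 0.806 in limma). Genes with symbols starting with Mt- together held 10.6 ± 0.476% of TPM in MMA+FA and 9.53 ± 0.845% in FA (SD, n = 3 each, two-sided exact permutation p = 0.2). Both ribosomal RNA genes lack such a symbol and are outside this share. Of 46 nuclear genes of the respiratory chain, 5 rose and none fell (median 0.07), among them the cytochrome oxidase subunits Cox5a (log2 0.26, adjusted p = 0.028) and Cox7a2 (log2 0.21, adjusted p = 0.0297), both lost in some fits with a library left out. After scaling 10 rose and none fell, beside 3.43% of all genes called higher (1.6% as deposited). With 1 library left out 0 to 14 rose, with FA replicate 2 left out 14, with MMA+FA replicate 1 left out 2 and with FA replicate 1 left out 1. None rose when FA replicate 3 or MMA+FA replicate 2 or 3 was left out.

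Some genes of cholesterol supply rose. Insig1, which retains the sterol sensor SCAP in the endoplasmic reticulum and is itself a target of SREBP2, had 22.8, 24.9 and 30.2 TPM in MMA+FA, against 14.4, 16.5 and 14.9 TPM in FA. Its lowest MMA+FA library was above its highest FA library, and the difference of 0.72 (SE 0.095, adjusted p = 0.00264 in limma) was kept with any 1 library left out. Scaled means were 27.1 ± 3.79 TPM in MMA+FA and 15.1 ± 1.11 TPM in FA, a difference of 0.79 (adjusted p = 0.00372). Msmo1, a sterol demethylating enzyme, had 49.6, 49.7 and 58.7 TPM in MMA+FA and 42.8, 43.0 and 40.5 TPM in FA (log2 0.31, adjusted p = 0.013). Cyp51 and Hmgcs1 rose by 0.20 each, with adjusted p-values of 0.029 and 0.0419 in limma.

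Of 26 genes of cholesterol synthesis and uptake 5 rose and none fell, with a median of 0.16 as deposited and 0.23 after scaling, where 7 rose. Higher calls made up 1.6% of all genes as deposited and 3.43% after scaling. Srebf2, which encodes the transcription factor SREBP2 itself, did not pass the test, at 19.9 ± 1.66 TPM in MMA+FA and 20.3 ± 2.23 TPM in FA (adjusted p = 0.888 in limma). The count of 5 became 2 without FA replicate 1, FA replicate 3 or MMA+FA replicate 3, and 3 without MMA+FA replicate 2. The scaled count of 7 became 3 to 5 with any 1 of the 6 libraries left out.

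Genes of mitosis and the G2/M transition were lower in MMA+FA than in FA. All 46 tested members had a difference below 0, with a median of -0.19, and 18 were called lower and none higher. For all genes the median was -0.07 and 8.9% were called lower. Ccnf, the F-box cyclin that marks proteins for destruction late in the cycle, had 10.5, 10.2 and 12.3 TPM in MMA+FA, against 17.1, 15.3 and 18.1 TPM in FA (log2 -0.57, SE 0.080, adjusted p = 0.00338 in limma). The spindle protein gene Nusap1 had 51.6, 48.9 and 53.9 TPM in MMA+FA and 68.7, 69.2 and 64.0 TPM in FA (log2 -0.38, adjusted p = 0.00496). The spindle checkpoint kinase gene Bub1b had 22.6, 22.2 and 23.9 TPM in MMA+FA and 27.6, 26.8 and 28.4 TPM in FA (log2 -0.26, adjusted p = 0.0115). In none of them did the groups overlap. Cdk1, the kinase that starts mitosis, was at 111 ± 6.64 TPM in MMA+FA and 132 ± 3.05 TPM in FA (log2 -0.25, adjusted p = 0.0122).

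After scaling 6 of the 46 were called lower, beside 2.46% of all genes, and the median was -0.11, with 5 members above 0. Ccnf, Nusap1, Bub1b and Cdk1 were the 4 members that kept their deposited call with any 1 library left out. The count of 18 became 4 without FA replicate 1, 5 without MMA+FA replicate 2 and 11 without MMA+FA replicate 1. Of 40 genes of S phase and DNA replication, Rpa2 and Rfc5 fell and Rpa3 rose, with a median of -0.03. After scaling none fell, 1 rose and the median was 0.04 (Rpa2 adjusted p = 0.0532 in limma). The 2 that fell, a smaller share than the 8.9% over all genes, became 4 without FA replicate 2, 1 when FA replicate 1 or 3 was left out and 0 without MMA+FA replicate 2, and Rpa3 lost its call in 3 of 6 such fits. Of 16 genes of deoxynucleotide supply, Nme1 and Nme2 were called higher after scaling only; as deposited their adjusted p-values were 0.0843 and 0.0593 in limma.

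Promoters of the 3 mitotic genes first described above are shown because mitotic promoters are known for a pair of short elements, the CHR, through which the DREAM and MuvB complexes act, and the CCAAT box bound by NF-Y. They come from RefSeq on GRCr8, Ccnf at chr10:13783670-13783919 on the minus strand, Nusap1 at chr3:127057045-127057294 and Bub1b at chr3:126016817-126017066 on the plus strand. Each run is the 250 bases before the first listed start, 5′ to 3′, with CHR letters (TTTGAA or TTCGAA) and CCAAT on either strand in capitals.
Ccnf: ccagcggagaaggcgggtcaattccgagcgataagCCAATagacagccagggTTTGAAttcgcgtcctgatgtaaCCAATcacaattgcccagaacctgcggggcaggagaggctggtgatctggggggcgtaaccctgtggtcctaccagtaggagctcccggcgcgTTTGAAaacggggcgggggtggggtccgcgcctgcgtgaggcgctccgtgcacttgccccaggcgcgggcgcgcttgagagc
Nusap1: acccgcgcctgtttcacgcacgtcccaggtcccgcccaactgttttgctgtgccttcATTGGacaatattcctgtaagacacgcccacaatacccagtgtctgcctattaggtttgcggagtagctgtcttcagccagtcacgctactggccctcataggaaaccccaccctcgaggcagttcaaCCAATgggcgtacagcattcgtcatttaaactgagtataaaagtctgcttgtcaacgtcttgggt
Bub1b: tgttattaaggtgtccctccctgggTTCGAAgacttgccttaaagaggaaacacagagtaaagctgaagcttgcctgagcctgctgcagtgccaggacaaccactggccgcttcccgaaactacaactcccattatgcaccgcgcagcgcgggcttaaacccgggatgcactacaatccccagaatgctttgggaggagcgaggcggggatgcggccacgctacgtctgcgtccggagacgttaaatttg
Ccnf held both motifs, Nusap1 the CCAAT box alone and Bub1b the CHR letters alone. Of the 40 mitotic genes with a promoter in the table, 21 held the CHR letters (52.5%), against 17.3% of all 27457 promoters, and 31 held CCAAT (77.5%), against 34.3%. The list was assembled from genes of known mitotic function, so these shares describe the list and say nothing about binding in these cells.

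With MMA given without FA the mitotic list had its median on the other side of 0. Of the 46 genes, 39 had a difference below 0 with FA and above 0 without FA. Of the 18 that fell with FA, 6 rose without FA and 12 were not called there. The comparison of MMA against control shares no library with MMA+FA against FA. In it 19 of the 46 rose and none fell, with a median of 0.18. As deposited 20.4% of all genes were called there, 3.85% higher and 16.5% lower. After scaling 30 of the 46 rose, with a median of 0.25. Of all 12263 genes 1847 were then called, and their split by direction is not given here. The difference between both effects, tested as an interaction in the same limma fit, was called below 0 for 20 of the 46 and above 0 for none, with a median of -0.37, beside 1.47% of all genes called below 0. After median-ratio scaling 21 of 46 were called below 0. The 20 became 7 to 13 when FA replicate 1, MMA+FA replicate 1 or 2, or any library of MMA or control was left out, and 18 to 25 when any other was.

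Cdk1 shows the pattern library by library. It had 107, 107 and 119 TPM in MMA+FA and 133, 129 and 135 TPM in FA, and without FA it had 163, 161 and 169 TPM in MMA and 138, 148 and 148 TPM in control. MMA+FA was thus the lowest group and MMA alone the highest, with no overlap between those compared. The interaction was -0.43 (SE 0.067, adjusted p = 0.0121 in limma) and was kept with any 1 of the 12 libraries left out. For Ccnb2, a mitotic cyclin, the effect of MMA was -0.05 with FA (adjusted p = 0.564) and 0.37 without FA (adjusted p = 0.00255), and the interaction was -0.42 (adjusted p = 0.0205), kept in 7 of 12 fits with a library left out. Tk1, the thymidine kinase of dividing cells, was at 44.1 ± 6.84 TPM in MMA+FA and 42.5 ± 1.88 TPM in FA, and at 49.5 ± 5.34 TPM in MMA and 28.0 ± 3.41 TPM in control (interaction -0.76, adjusted p = 0.0292, kept in 5 of 12 such fits). Of the S-phase list, 15 of 40 rose with MMA alone, beside 3.85% of all genes as deposited. After scaling 21 rose, and the share of all genes called higher there is not given here. In the interaction 3 of the list were called below 0, beside 1.47% of all genes. That count was 6 without FA replicate 2, 5 without MMA+FA replicate 3, and 1 or 2 without any other library.

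**Figure D3:**
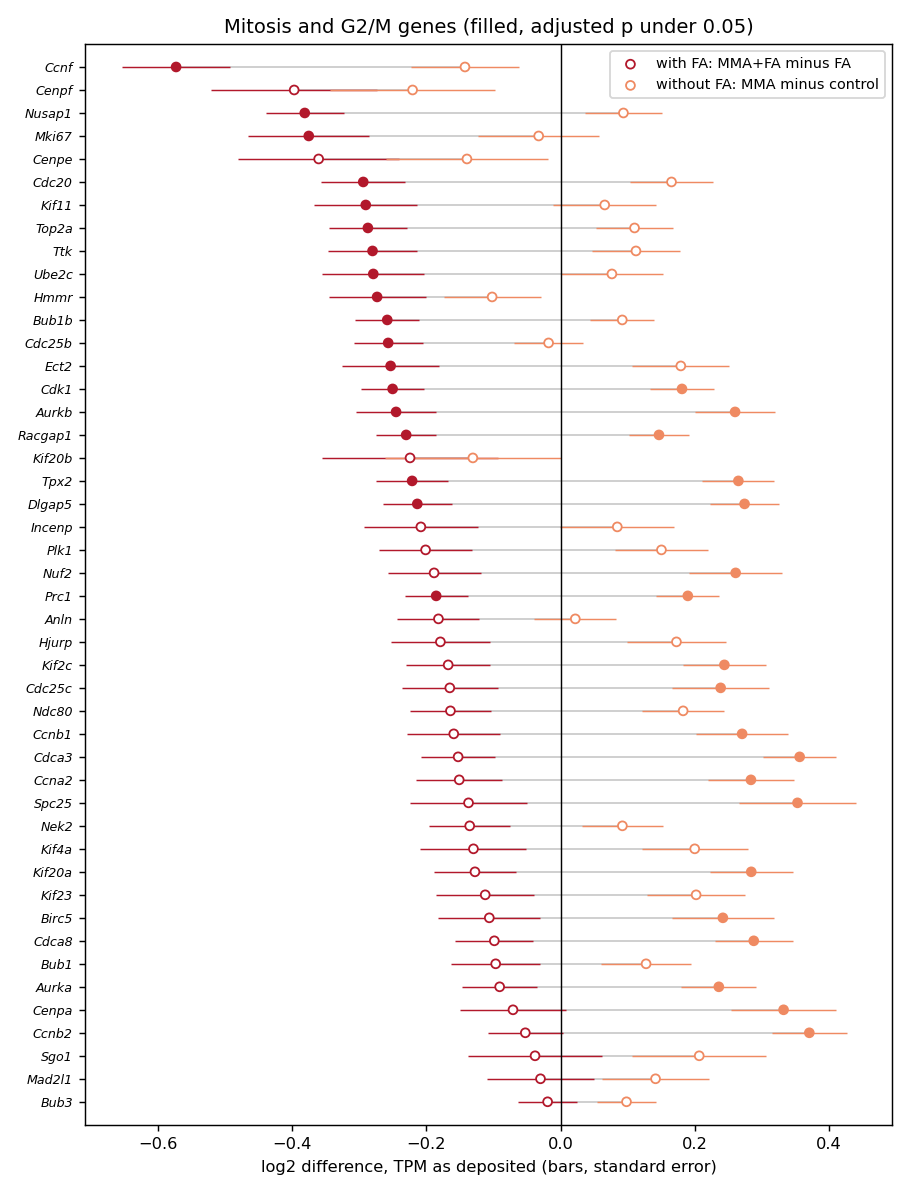
Log2 difference (horizontal axis, TPM as deposited, bars of 1 standard error) of the 46 mitosis and G2/M genes for MMA+FA minus FA in red and MMA minus control in orange, filled where the adjusted p was under 0.05 in limma. All 46 red points are below 0 and 39 of the orange points are above 0.

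Over the whole transcriptome, 295 genes were called in the interaction (2.41%), 115 above 0 (0.938%) and 180 below (1.47%), and 326 after scaling, 127 above (1.04%) and 199 below (1.62%). The differences with FA and without FA had a Pearson's r of 0.22 and a Spearman's rho of 0.31 across 12263 genes, which is a description, since genes are not independent. Of the genes called with FA, 467 were also called in the same direction without FA, which is 36.3% of the 1288 called with FA and 18.7% of the 2501 called without FA. After scaling the overlap was 198 genes, 27.4% of the 723 called with FA and 10.7% of the 1847 called without FA. As deposited, another 36 genes were called in opposite directions, 24 lower with FA and higher without and 12 the reverse, and 28 after scaling. Of these 36, 6 were in the mitosis list: Cdk1, Aurkb, Racgap1, Tpx2, Dlgap5 and Prc1.

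Palmd, which encodes an actin-associated paralemmin, had the lowest interaction among the named genes. It had 13.3, 11.2 and 11.6 TPM in MMA+FA and 18.2, 16.2 and 17.3 TPM in FA, but 17.5, 16.8 and 17.2 TPM in MMA and 10.3, 11.8 and 11.8 TPM in control. Neither pair overlapped, and the interaction was -1.05 (SE 0.10, adjusted p = 0.00332 in limma). The linker histone gene H1f10 fell with FA (-0.62, adjusted p = 0.0108) and was 0.33 without FA (adjusted p = 0.0553), with an interaction of -0.95 (adjusted p = 0.0146). Il1rl1, the receptor of interleukin-33, did not pass the test with FA (-0.18, adjusted p = 0.251) and rose without FA (0.66, adjusted p = 0.00234). The interaction of Acta1 ran the other way, 0.82 (SE 0.15, adjusted p = 0.0205), with 2.54, 3.43 and 3.18 TPM in MMA and 3.75, 3.87 and 3.69 TPM in control, and it was kept in 10 of 12 fits with a library left out.

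Genes of the vacuolar proton pump, which acidifies lysosomes, also differed between both settings. The 15 subunits of the vacuolar proton pump had a median of 0.10 with FA, where 1 rose, and of -0.21 without FA, where 11 fell and none rose. Among all genes 1.6% were called higher with FA (3.43% after scaling) and 16.5% lower without FA. The median of all genes as deposited was -0.07 both with and without FA. After scaling 6 of the 15 subunits rose with FA (median 0.17) and 7 fell without FA (median -0.13). The share of all genes called lower without FA after scaling is not given here. These 6 became 0 without FA replicate 1, 1 without MMA+FA replicate 2 and 3 without FA replicate 3 or MMA+FA replicate 1. They became 4 without MMA+FA replicate 3 and 7 without FA replicate 2. As deposited the 1 that rose with FA became 2 without FA replicate 2 and 0 without any other library of MMA+FA or FA. The interaction was called above 0 for 6 of 15 and below 0 for none (median 0.30), beside 0.938% of all genes called above 0, and with 1 library left out for 2 to 9. Atp6v0b, a subunit of the membrane rotor, had 95.5, 101 and 90.3 TPM in MMA+FA and 87.7, 86.7 and 82.3 TPM in FA, while it had 76.8, 82.7 and 78.4 TPM in MMA and 110, 105 and 115 TPM in control. Its difference with FA did not pass the test as deposited (0.16, adjusted p = 0.0678) and did after scaling (0.23, adjusted p = 0.0346), and the interaction was 0.62 (SE 0.073, adjusted p = 0.00849 in limma). Among 36 genes of lysosomes and autophagy, 1 rose with FA, beside 1.6% of all genes, and 20 fell without FA, beside 16.5%. After scaling 4 rose with FA, 0 to 6 with 1 library of MMA+FA or FA left out, and 10 fell without FA. In the interaction 8 were called above 0, among them the cholesterol transporter gene Npc1 (0.53, adjusted p = 0.0116). In the interaction the count of 6 for the pump was 2 without FA replicate 1 or control replicate 3. It was 3 without MMA replicate 2 or 3 or control replicate 1. It was 9 without FA replicate 2 and 4 without MMA+FA replicate 2. For the lysosomal list the 8 became 3 without MMA replicate 2 or 3, FA replicate 1, MMA+FA replicate 1 or 2, or control replicate 1 or 3, and 5 without MMA replicate 1.

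**Figure D4:**
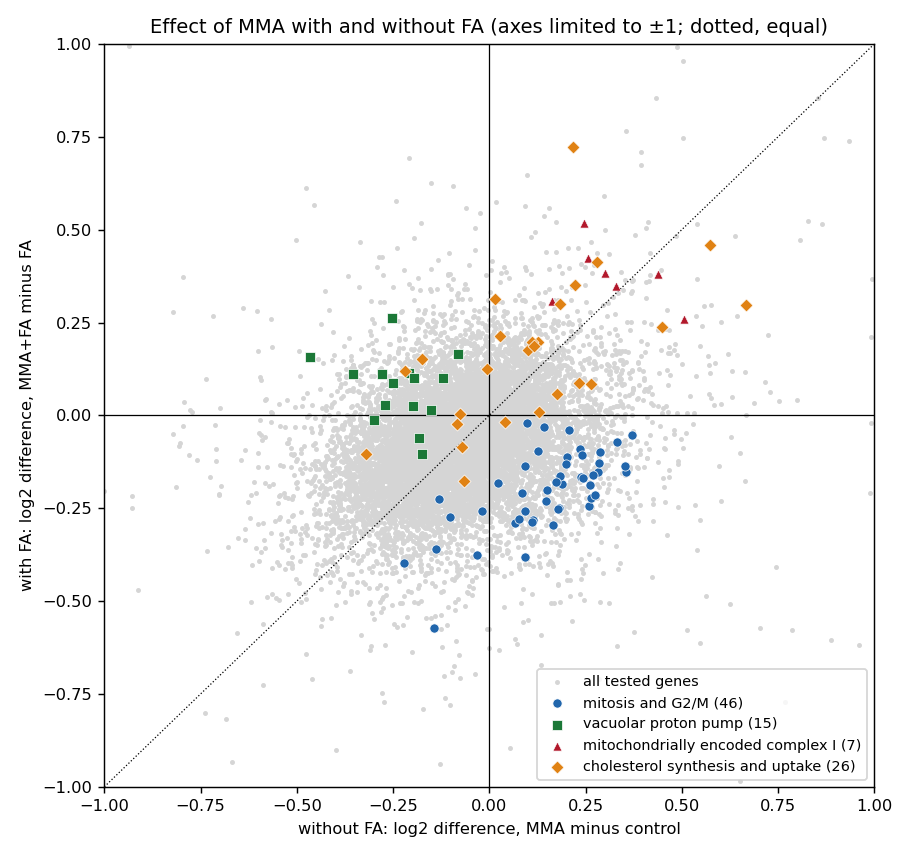
Log2 difference of MMA+FA minus FA (vertical axis) against MMA minus control (horizontal axis) for each tested gene, TPM as deposited, with axes limited to 1 in either direction. The 46 mitotic genes lie below 0 on the vertical axis and mostly to the right of 0, whereas the 7 mitochondrially encoded complex I genes lie above 0 on both axes.

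Some regulators of mesenchymal identity and of signalling fell with MMA+FA, while most of their lists did not pass the test. Prrx2, a homeobox factor of embryonic mesenchyme, had 5.04, 5.39 and 5.98 TPM in MMA+FA, against 9.65, 11.7 and 9.85 TPM in FA (log2 -0.82, SE 0.080, adjusted p = 0.00134 in limma). Scaled means were 5.71 ± 0.480 TPM in MMA+FA and 10.3 ± 1.16 TPM in FA (log2 -0.75, adjusted p = 0.00166). Cebpd, a stress-responsive C/EBP factor, had 7.76, 7.75 and 7.47 TPM in MMA+FA and 12.7, 12.1 and 12.8 TPM in FA (log2 -0.65, adjusted p = 0.000525). Both genes kept their calls with any 1 library left out. Shox2 (-0.37, adjusted p = 0.00383) and the bone regulator Runx2 (-0.32, adjusted p = 0.0137) also fell. Of 24 mesenchymal factors 6 fell and none rose, 4 of them also after scaling, and with 1 library left out between 3 and 9 fell, 3 without MMA+FA replicate 2. The share called lower over all genes was 8.9%, and 2.46% after scaling.

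Wnt4, a Wnt ligand, had 3.80, 3.33 and 4.15 TPM in MMA+FA and 6.66, 6.42 and 7.90 TPM in FA (log2 -0.75, SE 0.10, adjusted p = 0.00314 in limma), and the receptor gene Fzd4 was at 17.4 ± 0.475 TPM in MMA+FA and 24.6 ± 0.613 TPM in FA (log2 -0.48, adjusted p = 0.00322). Of 26 genes of the Wnt pathway 7 fell, beside 8.9% of all genes (2.46% after scaling), and none rose. Wnt4 and Fzd4 were called after scaling too and with any 1 library left out. The count of 7 became 2 without FA replicate 1 or 3 or MMA+FA replicate 2 or 3, and 4 without MMA+FA replicate 1. In the BMP branch of TGF-beta signalling, Smad9, which encodes a BMP-regulated SMAD, was at 1.90 ± 0.282 TPM in MMA+FA and 3.79 ± 0.316 TPM in FA (log2 -0.73, adjusted p = 0.00588). Id3, a BMP target that holds back differentiation factors, had 344.5, 332.5 and 373.6 TPM in MMA+FA and 458, 434 and 462 TPM in FA (log2 -0.37, adjusted p = 0.00322). Of the 28 genes of this list 6 fell and none rose, 4 fell after scaling while Bmp4 rose, and 2 fell without FA replicate 1 or without MMA+FA replicate 2.

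Of 39 matrix genes tested, 38 had a difference below 0 (median -0.17, against -0.07 for all genes). As deposited 8 fell and none rose, beside 8.9% of all genes called lower. After scaling 32 were below 0 and 7 above (median -0.10), and 2 fell, beside 2.46% of all genes called lower. Those 2 were Col11a1, a minor fibrillar collagen chain, at 25.2 ± 2.55 TPM in MMA+FA and 35.3 ± 1.12 TPM in FA (log2 -0.48, adjusted p = 0.00322 in limma), and Col5a2, at 852 ± 32.9 TPM in MMA+FA and 1037 ± 53.5 TPM in FA (log2 -0.28, adjusted p = 0.00494). The fibronectin gene Fn1 fell by 0.26 (adjusted p = 0.0225) and did not pass after scaling (adjusted p = 0.0731). The count of 8 became 2 without FA replicate 1, MMA+FA replicate 2 or MMA+FA replicate 3, 3 without FA replicate 3, and 16 when FA replicate 2 was left out. Summed fibroblast markers were 12098 to 13616 TPM in MMA+FA and 13089 to 14901 TPM in FA, with Tcf21 and Fap at 0.

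Stress and redox genes split. Hmox1, heme oxygenase, had 192, 214 and 173 TPM in MMA+FA and 268, 269 and 287 TPM in FA, without overlap (log2 -0.51, SE 0.070, adjusted p = 0.00322 in limma; -0.44 after scaling). The peroxide-removing Gpx1 rose by 0.18 (adjusted p = 0.0146) and the superoxide dismutase gene Sod1 by 0.20 (adjusted p = 0.0276). Of 34 genes of this list 3 rose and 5 fell, and after scaling 3 rose and 2 fell. Over all genes 1.6% were called higher and 8.9% lower, or 3.43% and 2.46% after scaling. The 3 became 1 without FA replicate 1 or 3 or MMA+FA replicate 1 or 3, and the 5 became 2 without FA replicate 1 or MMA+FA replicate 3 and 3 without MMA+FA replicate 1. Mgst3, a microsomal glutathione transferase outside the list, was at 107 ± 8.91 TPM in MMA+FA and 77.5 ± 2.97 TPM in FA (log2 0.45, adjusted p = 0.00602). Of 19 genes of iron handling 5 fell as deposited, among them Ftl1 and Slc40a1, the iron exporter, and none fell after scaling. As deposited 3 fell without FA replicate 2 or MMA+FA replicate 1, 1 without FA replicate 3 or MMA+FA replicate 2, and none without FA replicate 1 or MMA+FA replicate 3. Of 35 ATF4-response genes 11 fell and Atf4 itself rose (0.13, adjusted p = 0.0311). The call of Atf4 was lost without FA replicate 1 or any 1 library of MMA+FA. After scaling 1 fell, Eprs1, a tRNA synthetase gene at 469 ± 27.4 TPM in MMA+FA and 560 ± 1.63 TPM in FA (log2 -0.26 as deposited, adjusted p = 0.0115). The 11 became 1 without FA replicate 1 or MMA+FA replicate 3 and 2 without FA replicate 3 or MMA+FA replicate 2.

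In folate and cobalamin metabolism most genes did not pass the test. Mthfd1l, which releases formate from mitochondria, was at 34.1 ± 1.18 TPM in MMA+FA and 43.3 ± 3.39 TPM in FA (log2 -0.33, adjusted p = 0.0122 in limma). Methionine synthase, Mtr, had 23.4, 21.4 and 22.5 TPM in MMA+FA and 26.9, 26.4 and 26.7 TPM in FA (log2 -0.24, adjusted p = 0.0122). Both were called after scaling and with any 1 library left out. Of the 27 genes of folate and methionine metabolism 5 fell and none rose, and after scaling 2 rose and 2 fell. The shares over all genes were 8.9% lower and 1.6% higher, or 2.46% and 3.43% after scaling. The 5 became 2 without FA replicate 1 or 3 or MMA+FA replicate 3 and 3 without MMA+FA replicate 2. Of 32 genes of propionate, cobalamin and branched-chain amino acid breakdown 3 fell, close to the share of 8.9% over all genes, and after scaling 1 rose and 1 fell. As deposited the count was 6 without FA replicate 2 and 1 without FA replicate 1 or 3 or MMA+FA replicate 2 or 3. Among them was Abcd4, which moves cobalamin out of lysosomes, at 18.9 ± 2.06 TPM in MMA+FA and 25.8 ± 1.85 TPM in FA (log2 -0.43, adjusted p = 0.00924). Mmut, the mutase that consumes methylmalonyl-CoA, was at 8.79 ± 0.807 TPM in MMA+FA and 8.76 ± 0.681 TPM in FA (log2 0.00, adjusted p = 0.98).

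**Figure D5:**
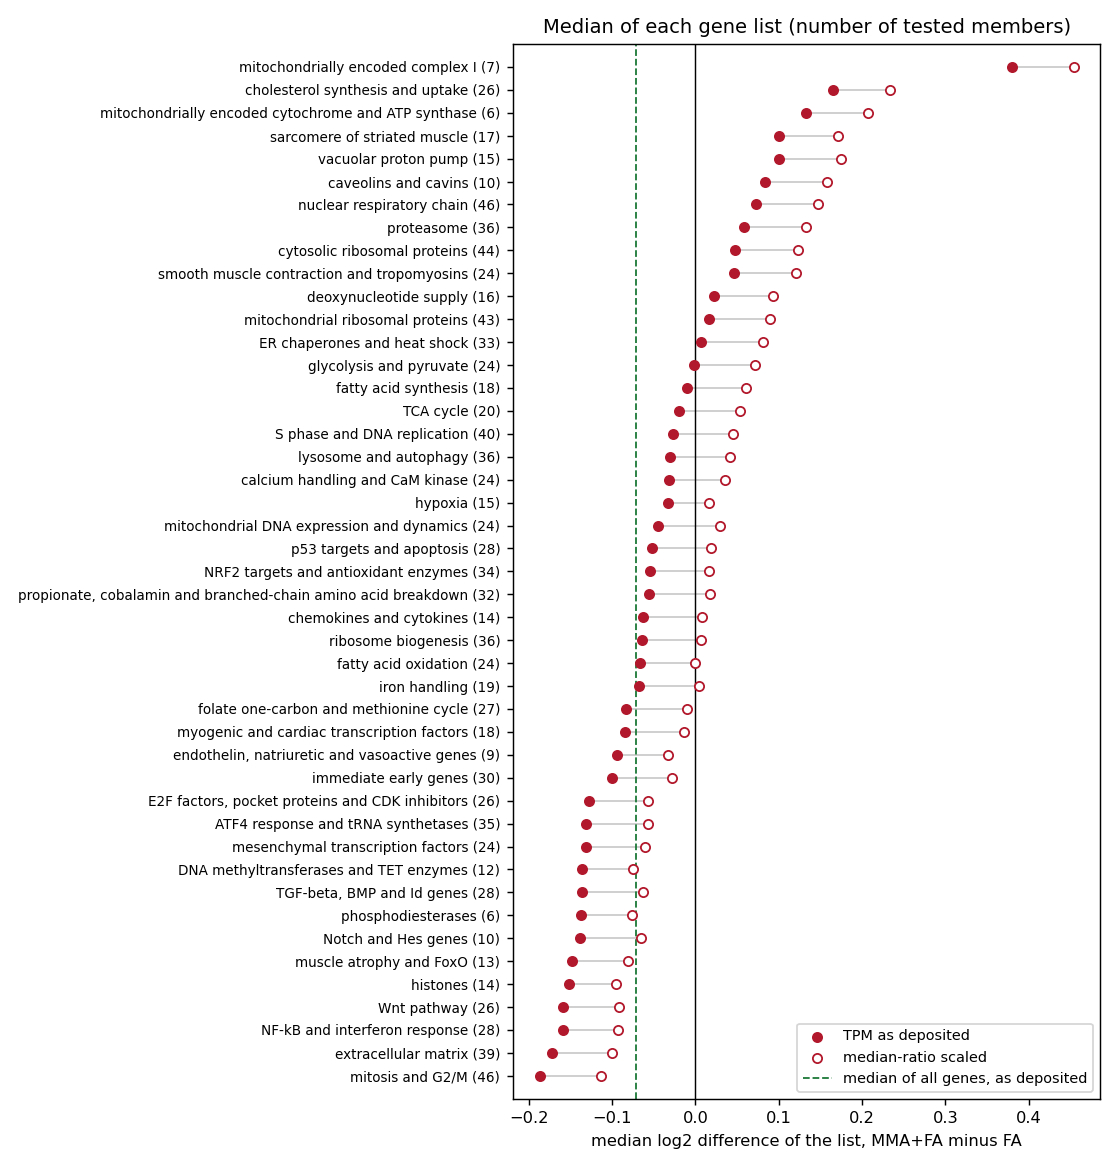
Median log2 difference of MMA+FA minus FA over the tested members of each gene list (number of members in brackets), as deposited in filled points and after median-ratio scaling in open points. Cell type marker lists are not drawn, and among the lists drawn the mitochondrially encoded complex I genes are highest at 0.38 and the mitotic genes lowest at -0.19, and the dashed line marks the median of all genes at -0.07.

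Other genes with large differences did not belong to a described group. Adgrg1, an adhesion G protein-coupled receptor, had 4.30, 2.91 and 2.56 TPM in MMA+FA and 9.60, 5.01 and 6.46 TPM in FA (log2 -0.90, adjusted p = 0.0189 in limma), a call lost in 3 of 6 fits with a library left out. Serpinf1, a secreted anti-angiogenic serpin, was at 29.2 ± 8.68 TPM in MMA+FA and 49.6 ± 2.60 TPM in FA (log2 -0.79, adjusted p = 0.0167) and lost its call in 2 of 6 fits with a library left out (highest adjusted p = 0.0517, without FA replicate 1). Dbp, an output gene of the circadian clock, had 32.2, 29.3 and 32.5 TPM in MMA+FA and 48.5, 45.5 and 52.4 TPM in FA (log2 -0.62, adjusted p = 0.00207). Inhbe, an activin subunit, fell by 0.70 (adjusted p = 0.0103), the potassium channel gene Kcnh1 by 0.69 (adjusted p = 0.00918), the helix-loop-helix factor gene Atoh8 by 0.67 (adjusted p = 0.00333) and the RNA-binding protein gene Mex3b by 0.63 (adjusted p = 0.00308). These 4 and Dbp kept their calls with any 1 library left out. Upwards, Ggct, an enzyme of glutathione breakdown, was at 11.5 ± 1.29 TPM in MMA+FA and 7.60 ± 1.85 TPM in FA (log2 0.56, adjusted p = 0.0216), and Tnfsf18, a ligand of the TNF family, at 7.60 ± 1.60 TPM in MMA+FA and 5.14 ± 0.512 TPM in FA (log2 0.47, adjusted p = 0.045). Neither kept its call in every fit with a library left out.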

How the data were processed

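Polyadenylated RNA of rat H9c2 cells was sequenced with a stranded kit, per the labels. The submitters' processing notes name fastp, HISAT2 and the build mRatBN7.2, with no versions. The authors deposited one TPM value for each gene and library. The title of that table names RSEM. Annotation and strand setting: not given in the sources used here. No column of another sample was present. Read counts were not used here, so depth and counting error are unknown.

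Genes averaging 1 TPM or more across all libraries were tested, and log2(TPM + 1) was fitted in limma 3.58.1 (R 4.3.3) with 1 mean per group over all 12 libraries and a mean-variance trend (8 residual degrees of freedom, prior 4.32). Fold changes on this scale understate those of low genes. Calls had a Benjamini-Hochberg adjusted p under 0.05 over all tested genes, which holds for every adjusted p given. The contrasts were MMA+FA minus FA, MMA minus control, and their difference, the interaction. Each was refitted after median-ratio scaling. The code was tested on simulated data.

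The members and the 53 gene lists, 7 of them of markers, were chosen with earlier results of these data known, and a list's count is no independent evidence of its direction. Symbols without a row among the deposited values were not analysed here. Genes named were, first, the 15 largest in each direction among genes called on both scales, with a unique symbol, a mean of at least 5 TPM in the higher group and libraries that did not overlap. From each list, the called genes of lowest p (3 at most) and the 5 largest in each direction in the interaction were added. The text leaves out some of these and gives other list members with values. Symbols starting with LOC, RGD, AABR or AC were passed over. The choice of plotted genes was made with values known.

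Other settings tried were pseudocounts of 0.5 and 0.1, quantile normalization, no filter, a mean of at least 5 TPM, no trend and library weights. So were TPM without genes whose symbols start with Mt-, the 6 libraries alone, a replicate block and leaving out each library. Combining median-ratio scaling with left-out libraries or the block was chosen after seeing the data. Promoters came from a RefSeq table of assembly GRCr8, another build than that of the values. Python 3.11.15 with pandas 2.3.3 read the promoters, and matplotlib 3.10.9 drew the figures. Results of a few list members are not reported here.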

Additional observations from a re-analysis of the deposited data

Results flagged for a closer look

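For 34 genes given in the text, 24 chosen by the naming rule and 10 outside it, the effect of MMA differed between cells with FA and cells without FA, by the interaction test in limma at an adjusted p under 0.05. Effects with FA are given first and those without FA after them, as log2 differences. Below 0 in the interaction and kept with any 1 of the 12 libraries left out were Palmd (-1.05), H1f10 (-0.95), Il1rl1 (-0.84), Sapcd1 (-0.83), Pimreg (-0.78), Cebpd (-0.57), Nusap1 (-0.47) and Rpa2 (-0.40). Pimreg, a mitotic regulator, was at -0.32 with FA and 0.46 without, and Cebpd at -0.65 with FA and -0.08 without. Also below 0, but lost when some libraries were left out, were E2f2 (-0.69), Tubb3 (-0.62), Atoh8 (-0.58), Ucp2 (-0.48), Col11a1 (-0.42), Rfc5 (-0.39), Bub1b (-0.35) and Col5a2 (-0.27).

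Above 0 and kept with any 1 of the 12 libraries left out were Lyset (0.75), Dok5 (0.74), Atp6v0b (0.62), Trim63 (0.55) and Vcl (0.33). Lyset, which takes part in the tagging of lysosomal enzymes, was at 0.18 with FA and -0.57 without, and Vcl at 0.16 with FA and -0.17 without. Above 0 but lost when some libraries were left out were Ndufv3-ps1 (0.97), a pseudogene whose reads may belong to its parent gene, Acta1 (0.82) and Ednra (0.44), the endothelin receptor gene.

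The 10 genes outside the naming rule were chosen after their values were seen. Below 0 and kept with any 1 library left out were Aurkb (-0.51), Dlgap5 (-0.49), Tpx2 (-0.49), Cdk1 (-0.43) and Racgap1 (-0.38), all of them mitotic genes, and Npc1 (0.53) was above 0 and likewise kept. Prc1 (-0.38) was kept in 11, Ccnb2 (-0.42) in 7 and Tk1 (-0.76) in 5 of 12 such fits. The second locus listed as Gemin4 (1.61), at low TPM, was kept in 3 of 12.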

How the results depend on the processing

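None of the genes chosen by the naming rule changed direction under the alternatives run, and of the 121 called in the comparison 8 stayed called under every one. Genes near 0 that the text also gives were not followed through all alternatives, and Ccnb2 turned to 0.02 with FA after median-ratio scaling. The 1288 calls (196 higher, 1092 lower) became 723 (421 and 302) with median-ratio scaling, 507 (253 lower) with quantile normalization, 699 (97 and 602) with no filter, 4485 (976 and 3509) with library weights, whose fit stopped before it converged, and 23 (4 and 19) when fitted on the 6 libraries alone; the cause was not tested. Leaving out 1 library gave 357 to 2010 calls (44 to 328 higher, 282 to 1682 lower). With median-ratio scaling as well, leaving out FA replicates 1, 2 and 3 gave 228, 1467 and 412 calls (88, 706 and 154 lower, 140 to 761 higher), and leaving out MMA+FA replicates 1, 2 and 3 gave 523, 286 and 231 (235, 120 and 87 lower). The 295 calls of the interaction became 181 with no filter and 1810 with library weights, 85 (without control replicate 1) to 496 (without FA replicate 2) with 1 library left out, and with scaling as well 80 without FA replicate 1, 540 without FA replicate 2, and 175 and 136 without MMA+FA replicates 1 and 2. The share of TPM held by genes with Mt- symbols differed by 1.10 percentage points (0.721 to 1.55 with a library left out). Residuals of same-numbered MMA+FA and FA libraries correlated at -0.085, -0.073 and -0.031 across genes, and those of differently numbered libraries at -0.040 to 0.115. Residuals around means of 3 libraries constrain one another, so these values cannot settle whether replicate numbers pair the samples. A replicate block gave 966 calls (146 and 820) and 214 in the interaction, and with median-ratio scaling 568 (346 and 222) and 213. Read depth is not known, so no detection limit can be given.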

Other observations

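Housekeeping complexes not described above had few calls as deposited. Proteasome and cytosolic ribosomal protein genes had more after scaling. Higher calls were also more frequent among all genes then, at 3.43% against 1.6% as deposited. Of 36 proteasome genes 2 rose, Psmb1 and Psmb3, and none fell (median 0.06), and 9 rose after median-ratio scaling (median 0.13). Of 44 cytosolic ribosomal protein genes 2 rose and none fell (median 0.05), and 6 rose after scaling. For the proteasome the 2 became 5 without FA replicate 2, 1 without MMA+FA replicate 1 and 0 without any other library. For the ribosomal proteins they became 6 without FA replicate 2, 1 without MMA+FA replicate 1 and 0 without any other library. After scaling the 9 proteasome genes became 15 without FA replicate 2, 3 without FA replicate 3 or MMA+FA replicate 2, 2 without MMA+FA replicate 3 and 1 without FA replicate 1. The 6 ribosomal protein genes became 16 without FA replicate 2 and 0 to 2 without any other library. Of 36 ribosome biogenesis genes 1 fell with MMA added to FA (3 without FA replicate 2), beside 8.9% of all genes. With MMA alone against control 15 fell as deposited, beside 16.5% of all genes. After scaling 6 fell, and the share of all genes called lower there is not given here.

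Of 26 E2F factors, pocket proteins and inhibitors of cyclin-dependent kinases 6 fell and none rose, and 1 fell after scaling. Of all genes 8.9% were called lower, and 2.46% after scaling. The 6 became 0 without FA replicate 1 or MMA+FA replicate 2, 2 without FA replicate 3 or MMA+FA replicate 3 and 4 without FA replicate 2.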
